A study of Mus musculus with 7 samples.

Results

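The enzymes that carry long-chain fatty acids into mitochondria, start their oxidation and make or use ketone bodies were examined as 8 genes: Cpt1a, Cpt1b, Cpt1c, Cpt2, Acadm, Bdh1, Oxct1 and Acat1. They were taken by name from the 50226 gene names with a usable entry in a table of expression across 7 mouse tissues, and all 8 were found. The 8 names were chosen with earlier results of these data known, and where a name had several entries the one with the highest maximum FPKM was used. RNA-Seq of rRNA-depleted total RNA covered liver, kidney, muscle and cortex as well as 3 fat depots, namely visceral (VAT), subcutaneous (SCAT) and brown (BAT) adipose tissue. All samples are labelled as wild-type C57BL/6 mice (C57BL/6N in the study's text) at 36 weeks of age on the diet labelled NCD, without any treatment. Each tissue has 1 library, and the labels do not say how many animals gave the RNA or whether tissues share an animal, so no difference below has a replicate check and no test was done. Levels are FPKM, in which the fragments of a gene are divided by its transcript length and by the size of the library, so that levels of different genes can be set side by side.

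Long-chain acyl-CoA cannot cross the inner mitochondrial membrane. CPT1 enzymes at the outer membrane transfer the acyl group to carnitine, a carrier brings acylcarnitine across, and CPT2 restores acyl-CoA for beta-oxidation, in which a dehydrogenase specific for chain length takes the first step. Liver is known to turn surplus acetyl-CoA into the ketone bodies acetoacetate and beta-hydroxybutyrate, which other organs turn back into acetyl-CoA.

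The tissue labels were checked with marker genes. All 4 kidney markers and all 4 cortex markers were highest in their own tissue, as were all 3 liver markers and both skeletal muscle markers that have a value there, and Ucp1 reached 6552 FPKM in BAT against at most 10.6 elsewhere. Of the brown adipocyte markers, Dio2 was low also in BAT (0.387 FPKM). Markers of other cell types were seen in both white depots: all 4 epididymis markers were highest in VAT, with a summed level of 2645 FPKM against 0 to 1.99 in the other tissues, and all 4 lymphocyte markers (summed 107 FPKM in SCAT, 0.222 to 3.25 elsewhere) and all 4 pancreatic acinar markers (92.9 against 0.290 to 8.82) were highest in SCAT. In VAT the 3 liver markers lay at 0.850% to 2.29% of their liver FPKM, and in BAT the 2 muscle markers lay at 1.93% and 3.13% of their muscle FPKM. Of the 4 white adipocyte markers, Adipoq and Lep were highest in VAT but Plin1 and Cidec in BAT, and none was highest in SCAT, where they lay at 33.2% to 73.0% of their VAT FPKM. Their summed level was 1071 FPKM in VAT, 415 in SCAT, 1419 in BAT and 1.34 to 49.9 in the other tissues. In whole tissue, fewer cells of a type and less RNA per cell cannot be told apart.

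**Figure D1:**
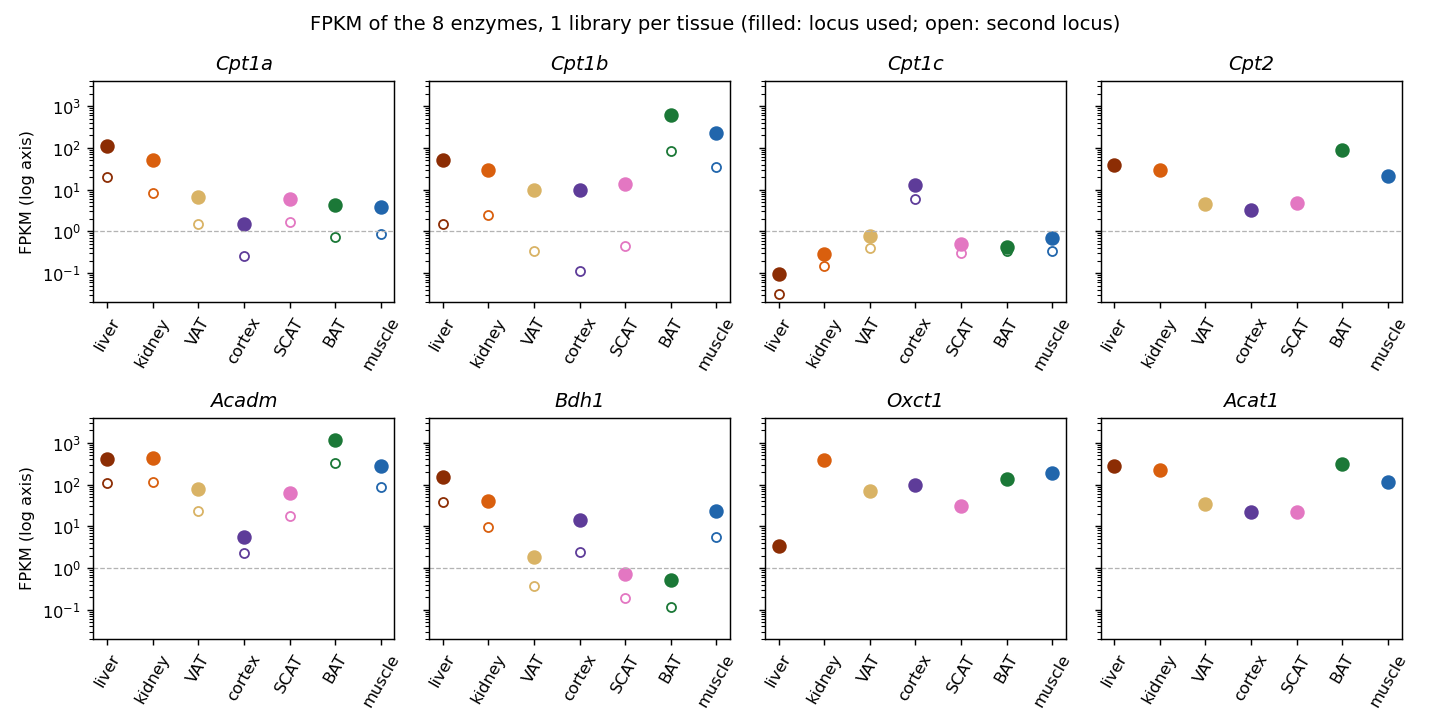
FPKM of each of the 8 genes in the 7 tissues on a logarithmic axis. Each filled point is 1 library at the locus used, open points are the second locus of the same name, and the dashed line marks 1 FPKM. The 3 CPT1 genes peak in liver, BAT and cortex, respectively, while Oxct1 is lowest in liver and Bdh1 highest there.

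The CPT1 genes differed most clearly in the tissue where each was highest. Cpt1a, the isoform of liver and many other organs, is listed at 109.6 FPKM in liver, 50.8 in kidney, 6.76 in VAT, 6.12 in SCAT, 4.37 in BAT, 3.86 in muscle and 1.50 in cortex. Liver was 2.16-fold above kidney and kidney 7.51-fold above VAT, whereas VAT, SCAT, BAT and muscle lay within 1.75-fold of each other. Cpt1b, the muscle isoform, was listed at 606 FPKM in BAT, 229.8 in muscle, 50.9 in liver, 29.4 in kidney, 13.7 in SCAT, 9.95 in VAT and 9.71 in cortex. BAT and muscle thus stood apart from the other tissues, with muscle 4.51-fold above liver, the next in order. Cpt1c, the neuronal isoform, which is located in the endoplasmic reticulum and has little transferase activity, was at 12.6 FPKM in cortex and at 0.789 in VAT, 0.690 in muscle, 0.499 in SCAT, 0.418 in BAT, 0.290 in kidney and 0.0963 in liver. Cortex was the only tissue in which Cpt1c reached 1 FPKM.

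A gene was called enriched in a tissue when it had at least 1 FPKM there and a log2(FPKM + 0.1) at least 2 (4-fold) above that of each other tissue. Cpt1c in cortex (log2 difference 3.84 to VAT) was the only one of the 8 genes past this rule. Of 19122 names with at least 1 FPKM in any tissue, 8.32% were enriched in cortex, 3.82% in liver, 3.63% in muscle, 2.67% in SCAT, 2.55% in kidney, 1.24% in VAT and 0.779% in BAT. Cpt1a in liver (log2 difference 1.11 to kidney) and Cpt1b in BAT (1.40 to muscle) stayed below it.

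The sequences around the starts of Cpt1a and Cpt1c are shown because these genes have opposite orders in liver and cortex. They run from 250 bases before to 50 bases after the RefSeq start in GRCm38.p6, at chr19:3323051-3323350 on the plus strand for Cpt1a and chr7:44974802-44975101 on the minus strand for Cpt1c. Capitals mark the GC box GGGCGG and the nuclear receptor motif AGGTCA on either strand.
Cpt1a: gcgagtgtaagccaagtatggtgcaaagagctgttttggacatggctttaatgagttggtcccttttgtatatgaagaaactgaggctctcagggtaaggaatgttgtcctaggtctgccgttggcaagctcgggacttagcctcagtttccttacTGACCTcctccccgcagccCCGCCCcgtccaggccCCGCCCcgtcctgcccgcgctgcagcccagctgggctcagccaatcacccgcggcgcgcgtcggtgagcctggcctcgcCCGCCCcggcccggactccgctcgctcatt
Cpt1c: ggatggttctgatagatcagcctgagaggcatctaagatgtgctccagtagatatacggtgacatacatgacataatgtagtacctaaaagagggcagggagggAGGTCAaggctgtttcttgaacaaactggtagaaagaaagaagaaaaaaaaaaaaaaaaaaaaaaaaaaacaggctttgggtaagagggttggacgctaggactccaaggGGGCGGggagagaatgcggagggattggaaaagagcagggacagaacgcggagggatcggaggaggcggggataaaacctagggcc
The Cpt1a window holds 3 GC boxes, which begin at positions -75, -59 and 20 counted from 0 at the start base, and 1 AGGTCA at -94. Cpt1c has 1 GC box at -36 and 1 AGGTCA at -146. Cpt1a has 62.3% G and C and 22 CpG, and Cpt1c 47.3% and 8, where the medians of 32851 mouse promoters of the same length are 52.7% and 7. Of those promoters, 35.7% hold GGGCGG and 16.3% AGGTCA on either strand, so that both motifs are common, and a match describes letters and not a bound site. The copies found here do not overlap. A direct repeat of AGGTCA with 1 base between the copies, found in 0.0396% of all promoters, was in none of the 7 windows, which belong to 6 of the 8 genes. Windows of Cpt1b and Acat1 were not analysed here.

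Expressed as shares of the summed FPKM of the CPT1 genes, Cpt1b made up 99.2% in BAT and 98.1% in muscle. Cpt1a made up 68.3% in liver and 63.1% in kidney, and Cpt1c 52.9% in cortex. In the white depots the shares of Cpt1b were 56.8% in VAT and 67.4% in SCAT. These shares carry a limit of the table. The entry used for Cpt1b, on chromosome 15 of GRCm38 from 89416197 to 89430868, is a merged locus that also bears the name of Chkb, choline kinase beta, a neighbour on the same strand at 89426360 to 89429908, and fragments of both genes cannot be told apart in it. A second entry with the same bounds bears the name Cpt1b alone and lies, by the order of the table, on the opposite strand. At this second entry Cpt1b had 86.6 FPKM in BAT and 34.9 in muscle, but 2.49 in kidney, 1.46 in liver, 0.457 in SCAT, 0.348 in VAT and 0.113 in cortex. BAT and muscle kept their places, yet muscle was 23.8-fold above liver there and not 4.51-fold.

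The share of Cpt1b therefore depended on the locus in every tissue except BAT and muscle. From the second entries of the 3 genes, Cpt1b made up 98.8% in BAT and 96.7% in muscle, but 6.79% in liver, 23.1% in kidney, 15.5% in VAT, 18.6% in SCAT and 1.78% in cortex. Cpt1a then led in both white depots, with 66.4% in VAT and 68.9% in SCAT, and Cpt1c reached 94.1% in cortex. These shares also depend on how large each second entry is beside the entry used, which differed between the genes. In cortex it was 17.5% for Cpt1a, 1.16% for Cpt1b and 47.4% for Cpt1c. In VAT the second entries were low, with 1.49 FPKM for Cpt1a, 0.348 for Cpt1b and 0.406 for Cpt1c.

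**Figure D2:**
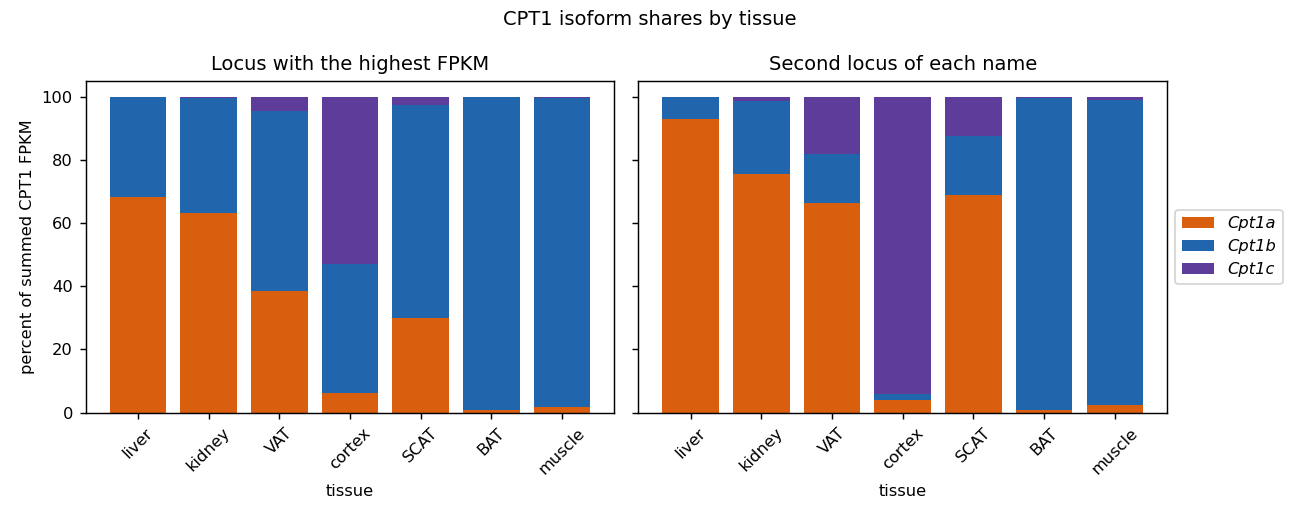
Share of each CPT1 gene in the summed CPT1 FPKM of each tissue, in percent, 1 library per tissue. The left bars use the locus with the highest FPKM, where Cpt1b is merged with Chkb, and the right bars the second locus of each name. BAT and muscle hold at least 96.7% Cpt1b in both, while liver falls from 31.7% to 6.79%.

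In all, 5 of the 8 genes (Cpt1a, Cpt1b, Cpt1c, Acadm and Bdh1) have such a second entry on the other strand, although the libraries were made with a kit that keeps the strand. All 8 entries used lie on the annotated strand. For Cpt1a, Acadm and Bdh1 the second entry stood at 16.0% to 40.7% of the entry used in every tissue, and for Cpt1c at 33.0% to 82.1%. Cpt1b was the one whose second entry varied most in proportion, from 1.16% in cortex to 15.2% in muscle. The entry used for Cpt1a also bears a further name, Mtl5, and spans 3321741 to 3407823 on chromosome 19, while the annotated gene Cpt1a ends at 3385733.

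Cpt2 and Acadm, which act after CPT1, were both highest in BAT. Cpt2 (chromosome 4, 107889226 to 107923610) was at 89.4 FPKM in BAT, 38.1 in liver, 30.2 in kidney, 20.9 in muscle, 4.70 in SCAT, 4.49 in VAT and 3.31 in cortex. Liver, kidney and muscle lay within 1.82-fold, and the white depots and cortex within 1.42-fold, with a 4.45-fold step between these sets of tissues. Acadm, the medium-chain acyl-CoA dehydrogenase, reached the highest level of the 8 genes, with 1183 FPKM in BAT, 446 in kidney, 416 in liver, 276 in muscle, 76.4 in VAT, 62.6 in SCAT and 5.51 in cortex. Its order was that of Cpt2 except that kidney stood above liver (1.07-fold) and VAT above SCAT (1.22-fold), and BAT was 2.65-fold above kidney.

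Cortex stood far below the other tissues for Acadm. A gene was called depleted in a tissue when its log2(FPKM + 0.1) there was at least 2 below that of each other tissue, all of which had at least 1 FPKM. Acadm in cortex was 3.48 below SCAT on this scale, and 2.92% of 9497 names that could be called were depleted in cortex. Cpt2 was also lowest in cortex but only 0.43 below VAT.

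The Acadm start is printed as that of the gene depleted in cortex, at chr3:153944594-153944893 on the minus strand of GRCm38.p6, marked as above.
Acadm: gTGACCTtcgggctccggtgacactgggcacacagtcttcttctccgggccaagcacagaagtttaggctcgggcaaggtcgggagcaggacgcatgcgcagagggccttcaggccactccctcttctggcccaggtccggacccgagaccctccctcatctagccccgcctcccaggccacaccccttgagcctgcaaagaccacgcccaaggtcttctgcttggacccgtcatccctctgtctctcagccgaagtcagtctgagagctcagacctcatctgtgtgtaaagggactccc
It holds 1 AGGTCA at -249, no GC box, 62.3% G and C and 13 CpG. Cpt2, in contrast, has 3 GC boxes, at -65, -38 and 3, and no AGGTCA.

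Bdh1 and Oxct1, which face each other in ketone body metabolism, had opposite places for liver. Bdh1 (chromosome 16, 31422280 to 31459545) is the mitochondrial dehydrogenase that interconverts acetoacetate and beta-hydroxybutyrate, in synthesis as well as in use. It was at 152 FPKM in liver, 41.5 in kidney, 23.6 in muscle, 13.9 in cortex, 1.80 in VAT, 0.708 in SCAT and 0.508 in BAT. Liver was 3.67-fold above kidney, close below the 4-fold rule (4.08-fold at its second entry), and the 3 adipose tissues formed the low end, 7.72-fold or more below cortex. In VAT, Bdh1 was at 1.18% of its liver level, within the 0.850% to 2.29% of the liver markers there, and in BAT at 2.15% of its muscle level, within the 1.93% to 3.13% of the muscle markers. The part of other tissues' RNA in these low values was not tested.

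Oxct1 (chromosome 15, 4020114 to 4155344) encodes SCOT, which transfers CoA to acetoacetate and is known to be nearly absent from hepatocytes. It was at 393 FPKM in kidney, 185 in muscle, 137 in BAT, 96.9 in cortex, 71.0 in VAT, 30.0 in SCAT and 3.46 in liver. Muscle, BAT, cortex and VAT followed each other in steps of 1.36-fold to 1.41-fold. Liver stood 8.67-fold below SCAT (log2 difference -3.08), and Oxct1 was thereby depleted in liver, as were 1.00% of 9184 names. Kidney was 114-fold above liver.

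The start of Oxct1 is shown for this gap, at chr15:4026178-4026477 on the plus strand of GRCm38.p6.
Oxct1: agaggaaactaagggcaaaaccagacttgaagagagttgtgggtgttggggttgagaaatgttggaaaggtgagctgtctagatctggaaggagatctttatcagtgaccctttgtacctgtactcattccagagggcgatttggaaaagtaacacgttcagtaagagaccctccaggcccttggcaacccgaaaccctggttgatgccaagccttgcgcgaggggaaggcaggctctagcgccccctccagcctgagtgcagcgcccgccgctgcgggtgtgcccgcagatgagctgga
Neither motif is in this window, which has 55.3% G and C and 11 CpG. For Bdh1, RefSeq gives 2 starts: the window at chr16:31422047-31422346 holds neither motif, and the one at chr16:31428503-31428802 holds 1 GC box at 15. An absent match says only that these letters are not in the window.

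Acat1, the mitochondrial acetoacetyl-CoA thiolase, works in the making and the use of ketone bodies and had the narrowest range of the 8 genes. It was at 305 FPKM in BAT, 275 in liver, 224 in kidney, 113 in muscle, 33.4 in VAT, 22.0 in cortex and 21.8 in SCAT. BAT, liver and kidney lay within 1.36-fold, and the highest tissue was 14.0-fold above the lowest, against 27.0-fold for Cpt2 and 299.9-fold for Bdh1.

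Set against each other within a library, Bdh1 exceeded Oxct1 in liver by 5.42 on the log2 scale. Oxct1 exceeded Bdh1 in the other 6 tissues, where the difference of Bdh1 minus Oxct1 was -2.79 in cortex, -2.97 in muscle, -3.24 in kidney, -5.22 in VAT and SCAT and -7.81 in BAT.

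**Figure D3:**
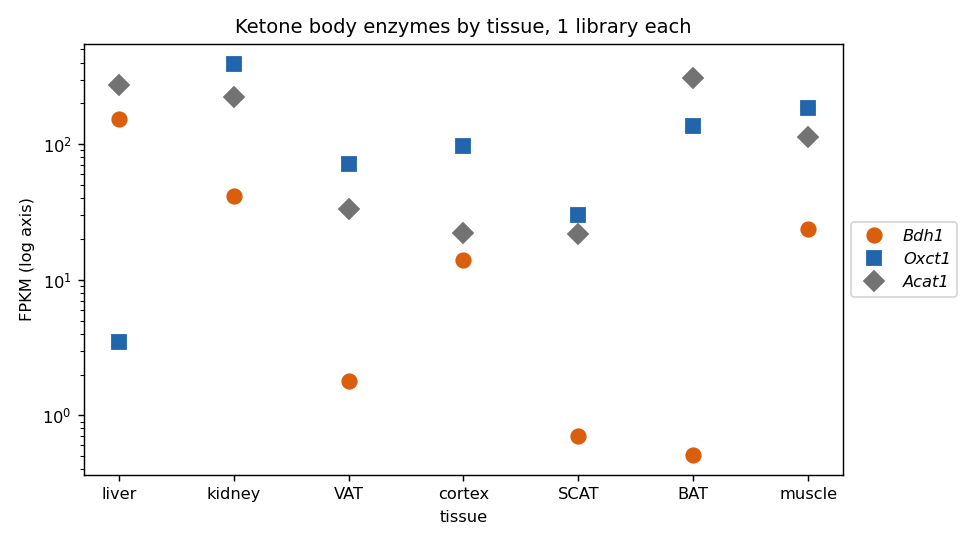
FPKM of Bdh1, Oxct1 and Acat1 in each tissue on a logarithmic axis, with 1 point per gene and library. In liver Oxct1 (3.46 FPKM) is the lowest of the 3 genes by far, and in kidney it is the highest (393).

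Pairs of tissues were compared by the number of the 8 genes at least 4-fold apart, among those with at least 1 FPKM in either tissue. Between liver and muscle, 2 of 7 (Cpt1a and Bdh1) were higher in liver, against 14.5% of all names, and 2 (Cpt1b and Oxct1) higher in muscle, against 15.7%. Cpt1a was 28.4-fold and Bdh1 6.45-fold higher in liver, and Cpt1b, at the locus merged with Chkb, 4.51-fold and Oxct1 53.6-fold higher in muscle. With 7 genes, these counts are too small to set apart from the shares of all names. The shared steps Cpt2 (1.82-fold), Acadm (1.50-fold) and Acat1 (2.45-fold) were all above muscle in liver by less than 4-fold. After scaling of the libraries by median ratios, 1 gene (Oxct1) and not 2 was 4-fold higher in muscle.

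Between liver and kidney, of 7 genes, 0 were 4-fold higher in liver (9.35% of all names) and 1, Oxct1, in kidney (10.6%), counts again too small to set apart from those shares. Liver and cortex differed in all 8: Cpt1a, Cpt1b, Cpt2, Acadm, Bdh1 and Acat1 were higher in liver (6 of 8, 19.0% of all names) and Cpt1c and Oxct1 in cortex (2 of 8, 20.3%). The count higher in cortex is too small to set apart from its share of all names. The median log2 difference between liver and cortex was 3.46 over the 8 genes and 0.21 over all names compared.

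BAT was next compared with the white depots. Over VAT, 4 of 7 (Cpt1b, Cpt2, Acadm and Acat1) were 4-fold higher in BAT, by 60.9-fold, 19.9-fold, 15.5-fold and 9.14-fold, against 9.92% of all names, and 0 were higher in VAT (8.02%). The value of Cpt1b is that of the locus merged with Chkb, and at its second entry BAT was 249-fold above VAT. Over SCAT, the same 4 and Oxct1 were higher (5 of 6, 15.1% of all names) and 0 lower (7.91%). After median-ratio scaling Oxct1 was 2.69-fold higher, and 4 genes passed 4-fold. Cpt1a was at 4.37 FPKM in BAT, 6.76 in VAT and 6.12 in SCAT, and Cpt1c was below 1 FPKM in all of them. The 4 white adipocyte markers did not move together here. Plin1 (413 FPKM in BAT, 102 in VAT, 74.8 in SCAT) and Cidec (746, 587 and 204) were higher in BAT than in both depots, Adipoq (257.8, 330.2 and 109.6) lay between them, and Lep (2.02, 51.6 and 26.6) was lower in BAT than in both. The part of adipocyte content in these differences was not tested. The median log2 difference of BAT to VAT was 3.19 for the 7 genes and 0.50 for all names, and to SCAT 4.01 for the 6 genes and 0.58 for all names. Between BAT and muscle, Cpt2 (4.28-fold) and Acadm (4.28-fold) were higher in BAT (2 of 7, 7.18% of all names) and Bdh1 (46.5-fold) in muscle (1 of 7, 10.3%). Both counts are too small to set apart from the shares of all names. With the second entries of the 5 genes that have one, Acadm fell below 4-fold, and 1 gene, Cpt2 at its only entry, was 4-fold higher in BAT. Cpt1b in BAT was at 264% of its muscle level, and the muscle markers were at 1.93% and 3.13% of theirs. The part of muscle RNA in the BAT values was not tested. The comparisons of tissue pairs share libraries, so their counts do not add up as separate evidence.

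The 8 genes were also set against another mitochondrial pathway. The median FPKM of 15 enzymes of the tricarboxylic acid cycle, which burns the acetyl-CoA of both pathways, was 378 in BAT, 173 in muscle, 89.2 in kidney, 67.7 in liver, 30.3 in cortex, 23.6 in VAT and 16.9 in SCAT. Relative to that median, BAT no longer led for Cpt2, Acadm and Acat1. The log2 difference of Acadm to the cycle was 2.62 in liver, 2.32 in kidney, 1.88 in SCAT, 1.69 in VAT, 1.65 in BAT, 0.67 in muscle and -2.44 in cortex, so that cortex remained the low tissue. For Acat1 it was 2.02 in liver and -0.31 in BAT, and for Cpt2 -0.83 in liver and -2.08 in BAT. Cpt1b was still highest in BAT (0.68) and muscle (0.41), Cpt1a and Bdh1 in liver (0.69 and 1.17), Cpt1c in cortex (-1.26) and Oxct1 in kidney (2.14), with liver lowest for Oxct1 (-4.25).

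**Figure D4:**
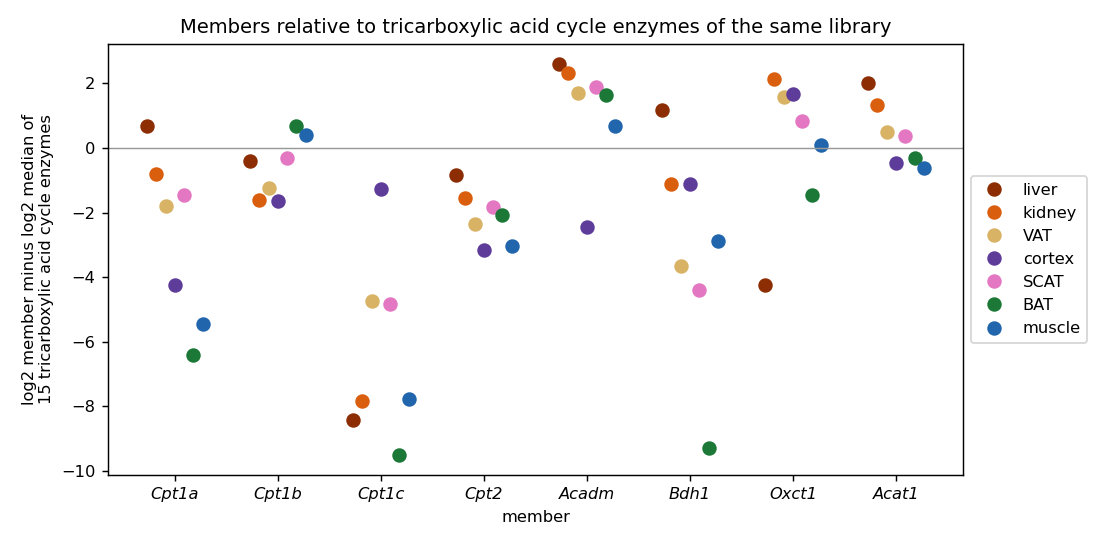
Log2(FPKM + 0.1) of each of the 8 genes minus the median of 15 tricarboxylic acid cycle enzymes in the same library, with 1 point per tissue. Liver is the highest point for Acadm (2.62), Acat1 (2.02) and Cpt2 (-0.83), which have their highest FPKM in BAT, and the lowest for Oxct1 (-4.25).

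The rest of the pathways was described with 51 further genes in 6 lists, of which 48 had at least 1 FPKM in any tissue. BAT was the highest tissue for 25 of them and liver for 12, where 14.1% and 16.3% of all names with at least 1 FPKM are highest in these tissues. Cortex was the lowest tissue for 32, against 23.2% of all names. In the list of 18 mitochondrial beta-oxidation genes, 16 were highest in BAT and 17 lowest in cortex, and the median log2 level was 8.53 in BAT and 2.66 in cortex, with 1.40 and 1.47 for all names. Of the 15 tricarboxylic acid cycle enzymes, 14 were likewise highest in BAT, but 0 were lowest in cortex and 14 in SCAT. No test of a list was made.

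Enriched in BAT were 6 of the 48 genes, against 0.779% of all names. After median-ratio scaling 4 remained, without Hadha and Slc25a20, against 0.570% of all names, and with the entries of each name summed 5 remained, without Slc25a20, against 0.745%. Hadhb and Hadha, the subunits of the trifunctional protein of long-chain beta-oxidation, were at 2952 and 1487 FPKM there, 2.75 and 2.13 above the next tissue on the log2 scale, and the Hadhb entry also bears the name Garem2. Acadvl (1031 FPKM, 2.29) and Acadl (639 FPKM, 2.28), dehydrogenases of longer chains than Acadm, and Slc25a20, the carnitine-acylcarnitine carrier between CPT1 and CPT2 (348 FPKM, 2.02), were the others of oxidation. The last was Acaca, the acetyl-CoA carboxylase of fatty acid synthesis, whose product malonyl-CoA inhibits CPT1, with 228.6 FPKM in BAT and 4.41 to 20.5 elsewhere. Acacb, the carboxylase at the mitochondrial surface, was at 66.6 FPKM in BAT and 51.6 in muscle, which are also the tissues where Cpt1b was highest, and at 0.203 in cortex.

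Depleted in cortex were 10 of the 36 genes that could be called, with at least 1 FPKM in all other tissues, against 2.92% of all such names. The count was 2 of 36 with a pseudocount of 1, against 0.906% of all names under that rule, and 22 of 39 without VAT and SCAT, against 4.68%. The largest differences were those of Acacb (log2 difference -2.81), Acads, the short-chain dehydrogenase (-2.80), Ehhadh, the peroxisomal bifunctional enzyme (-2.49), Hadh, the 3-hydroxyacyl-CoA dehydrogenase (-2.33), Slc25a20 (-2.14) and Decr1, the dienoyl-CoA reductase (-2.14). Acacb and Ehhadh were below 1 FPKM in cortex (0.203 and 0.112), so their differences and places in this order depend strongly on the pseudocount of 0.1. In liver, 2 of the 48 genes were enriched, against 3.82% of all names, and in kidney 1, against 2.55%, so that both counts are near the share of all names. In liver these were the peroxisomal thiolases Acaa1a (168 FPKM, log2 difference 2.01) and Acaa1b (673 FPKM, 3.06), close relatives that can share reads, of which 1 (Acaa1b) remained with a pseudocount of 1 or after median-ratio scaling. The Acaa1a entry also bears the name Dlec1. In kidney the enriched gene was Bdh2, a cytosolic dehydrogenase (151 FPKM against 4.35 in liver, 5.09). Abcd2, a peroxisomal transporter, was depleted in kidney (0.165 FPKM, -3.23), as 1 of 33 genes that could be called, against 0.134% of 8959 names. Among the regulators, Ppara, the nuclear receptor that drives many genes of fatty acid oxidation, was at 73.9 FPKM in liver, 45.6 in BAT, 14.7 in kidney, 3.10 in muscle and below 1 FPKM in VAT, SCAT and cortex. Its coactivator Ppargc1a was at 7.37 FPKM in kidney, 6.28 in muscle and 6.20 in BAT, and at 0.240 in VAT.

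**Figure D5:**
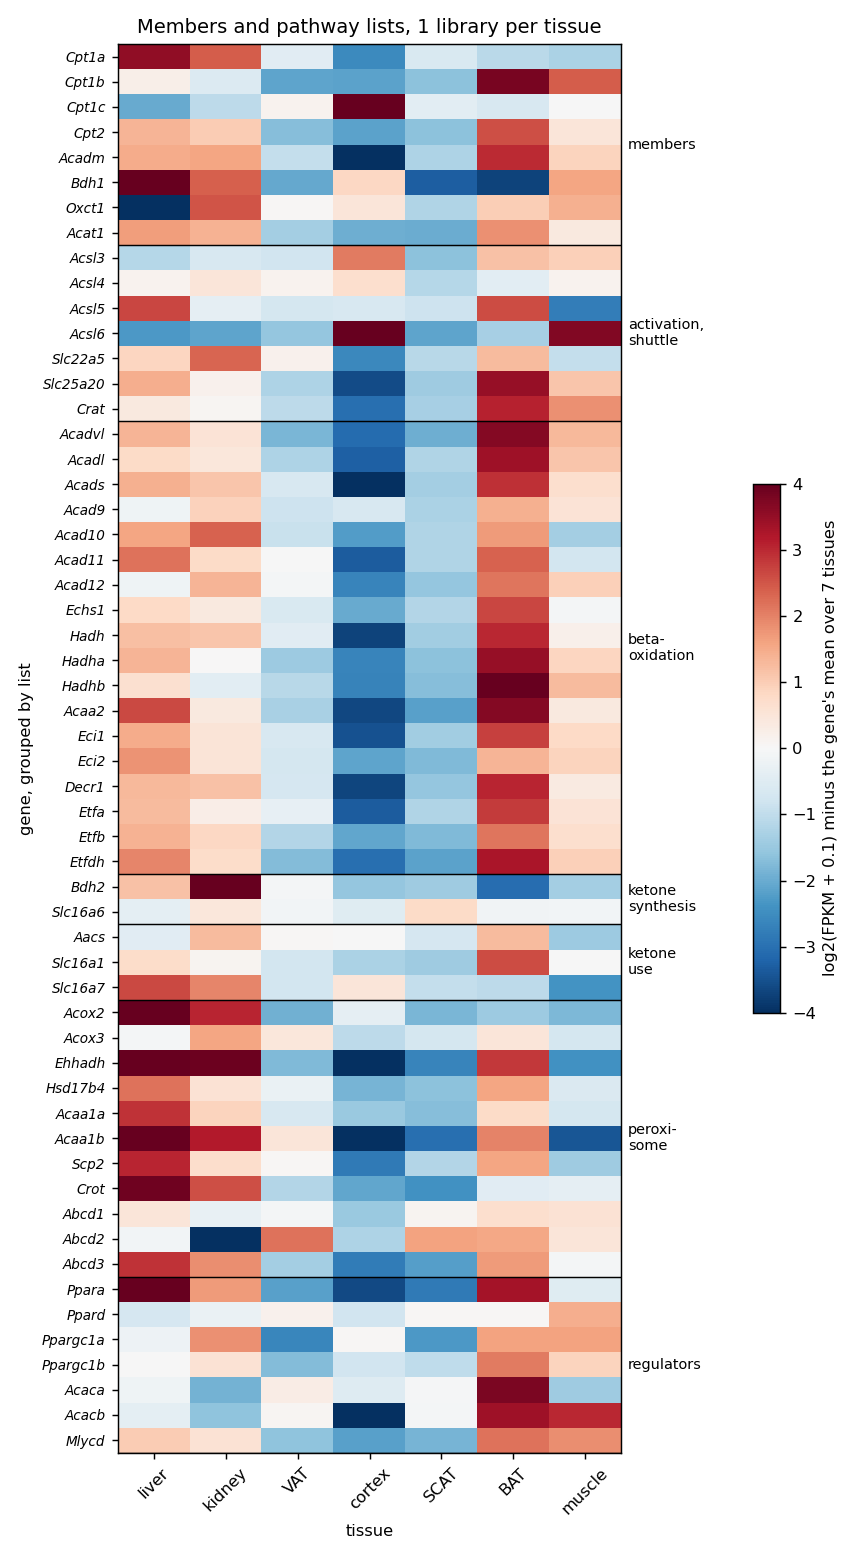
Log2(FPKM + 0.1) minus the gene's mean over the 7 tissues, as colour, for the 8 genes and the 48 pathway genes with at least 1 FPKM in any tissue, grouped by list, with 1 library per tissue. Colours end at -4 and 4. The beta-oxidation block is reddest in BAT (16 of 18 genes highest there) and bluest in cortex (17 of 18 lowest), and the peroxisomal block is reddest in liver (8 of 11).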

How the data were processed

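RNA-Seq libraries of 7 mouse tissues, with 1 library each, were used as 1 table. The authors deposited FPKM per locus and tissue, as Cuffdiff gave them in the 21 pairs of tissues. According to the methods, adapters were removed with flexbar, rRNA reads with Bowtie2 2.2.9, and the other reads were aligned to GRCm38 with STAR 2.6.0c. Transcripts were assembled and merged, and tissues compared, with Cufflinks 2.2.1. Its setting for strand is not given in the sources used here. Merging joins neighbouring genes into 1 locus and thereby mixes their fragments. The table also has the authors' log2 fold changes, test statistics, p-values and q-values, which were not used.

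Of 94339 loci, 151 with the status FAIL were left out, zeros with the status LOWDATA were set to missing, and a name took the locus with the highest maximum FPKM. Values of a tissue were identical in all 6 of its comparisons. Strand was read from the order of loci, and coordinates were converted to count from 1. The files give no fragment counts. The spacing of low values fitted more than 1 relative depth in several libraries, so depth, and the precision it gives, is unknown. No interval was computed.

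Log2(FPKM + 0.1) was compared, which understates differences of low values, with the 4-fold rules given in the text. No p-value was computed, since no tissue has a second library. On simulated data the rules were tested before use. Named are the 8 genes, list genes past a rule (at most 6 per tissue, by size), 9 pathway genes chosen by role, and for each of the 8 genes the 3 names with the highest Pearson correlation over 7 tissues. Acyl-CoA synthetases and the genes given with them under other observations fall outside this rule. The 8 genes and all lists were chosen with earlier results of these data known. A few genes of the lists were left out of all results and are not reported here. Listed genes without a usable locus were Acsl1 and Acta1. Gene positions are from GENCODE vM21, and promoters from RefSeq (GRCm38.p6). Alternatives covered pseudocount, fold, minimum FPKM, scaling between libraries, choice of locus and leaving out VAT and SCAT. Python 3.11.15, pandas 2.3.3, NumPy 2.4.6 and matplotlib 3.10.9 were used.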

Additional observations from a re-analysis of the deposited data

How the results depend on the processing

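No paired analysis was possible because the 7 tissues have a single library each. The 8 log2 ratios of the highest over the next tissue changed sign in 4 of 53 recomputed values. Some of the 53 could not change, so that this count is no measure of stability. Leaving out VAT and SCAT could alter the ratio of Cpt1c alone, and summing entries could not alter Cpt2, Oxct1 or Acat1. Relative to the tricarboxylic acid cycle enzymes, the ratio in BAT turned to -1.25 for Cpt2, -0.97 for Acadm and -2.33 for Acat1, whose BAT ratio was also -0.032 after median-ratio scaling. Bdh1 in liver passed the 4-fold rule relative to the cycle (2.27) and at its second locus (2.02). Cpt1c in cortex passed it under every alternative run. With a 2-fold rule, 7 of the 8 genes were enriched in a tissue, against 40.3% of all names, as were 17 pathway genes in BAT (2.72%), 7 in liver (6.83%) and 3 in kidney (4.22%), and 17 were depleted in cortex (8.40%). Pathway genes enriched in liver numbered 1, not 2, with a pseudocount of 1 and after median-ratio scaling. Those depleted in cortex numbered 2 with a pseudocount of 1 and 22 without the VAT and SCAT libraries. Without these libraries, 7 of the 8 genes could be called, and 5 were depleted in a tissue, against 6.78% of all names that could be called. In the main setting 6 could be called and 2 were depleted, against 3.97%. In pairs of tissues, the 2-fold rule gave 2 genes higher in liver than kidney (18.0%), 1 in VAT than BAT (13.5%) and 4 in BAT than muscle (17.9%). Median-ratio scaling (factors 0.713 in SCAT to 1.30 in muscle, from 8881 genes) gave 1 gene higher in muscle than liver (13.0% of all names), 1 in VAT than BAT (12.2%) and 4, not 5, in BAT than SCAT (7.52%), and left 4 of 6 pathway genes enriched in BAT. Second loci, taken for the 8 genes alone so that the shares of all names stayed at 9.35% and 7.18%, gave 1 gene higher in liver than kidney and 1 in BAT than muscle. They also gave the Cpt1b shares of 6.79% in liver, 23.1% in kidney, 15.5% in VAT, 18.6% in SCAT and 1.78% in cortex. The second loci and the pseudocount of 0.01 for counts were chosen after seeing the data. Any difference between neighbouring tissues under 2-fold, 29 of the 48 neighbours in the orders of the 8 genes, has no replicate to hold it against.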

Other observations

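The genes that followed each of the 8 most closely were sought among 9119 names at other loci with at least 10 FPKM in any tissue, by Pearson's r of log2(FPKM + 0.1) over the 7 tissues, which share their libraries. The closest were Sfxn2 for Cpt1a (0.992), Eral1 for Cpt1b (0.991), Lrch2 for Cpt1c (0.998), Slc25a42 for Cpt2 (0.990), Osbpl9 for Acadm (0.998), Hook1 for Bdh1 (0.975), Tspan3 for Oxct1 (0.977) and Vwa8 for Acat1 (0.992). Tspan3, a tetraspanin, was like Oxct1 low in liver alone, with 2.48 FPKM there and 21.9 to 114 in the other tissues. Next after these came Qprt and Pdilt for Cpt1a, Cpsf4 and Cox7a2l for Cpt1b, Trnp1 and Gp1bb for Cpt1c, 1110008F13Rik and Etfb for Cpt2, Acads and Exosc5 for Acadm, Vamp7 and Cpox for Bdh1, Slc25a36 and Ppp1r1a for Oxct1, and Lmf1 and Mut for Acat1. For Cpt1b the search used the entry merged with Chkb, so its followers track the mixed values. Etfb, whose entry also bears the names Gm45233 and Vsig10l, and Acads are also in the list of beta-oxidation genes. Etfb, Acads and Mut encode mitochondrial proteins of fatty acid or propionate breakdown. With 7 points, many genes reach a high r.

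Acyl-CoA synthetases, which activate fatty acids before the CPT1 step, were chosen after their values were seen, as were the other genes of this paragraph. Acsl6 was at 29.6 FPKM in cortex, 7.37 in muscle and at most 0.132 in the other 5 tissues, a log2 difference of 1.99, just under the rule. Acsl5 was at 158 FPKM in liver and 152 in BAT, and at 3.52 in muscle. Acsl3, whose entry also bears the name Utp14b, was highest in cortex (40.5 FPKM) and lowest in SCAT (2.93). Acsl4 went from 3.48 FPKM in SCAT to 12.3 in cortex, 0.18 above kidney on the log2 scale. The monocarboxylate transporter genes Slc16a1 and Slc16a7, whose proteins carry ketone bodies across membranes, were highest in BAT (34.6 FPKM) and liver (25.1 FPKM), respectively. In the peroxisomal list, 8 of 11 genes were highest in liver, against 16.3% of all names with at least 1 FPKM, among them Crot, the octanoyltransferase (486 FPKM in liver, 195 in kidney).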
